A study of Bos taurus with 6 samples.

Results

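A small group of 21 bovine genes read higher in blastocysts from synchronized recipients than in blastocysts from superovulated heifers, on every array. The widest spaces between the groups were those of the long non-coding gene LOC100174924, NHLRC2, which is named for its NHL repeats and also carries a thioredoxin-like domain, the fucosyltransferase gene FUT1 and CHMP1B of the membrane-cutting ESCRT-III complex. The genes were chosen by their values on these arrays: a probe set with 1 gene symbol had to have its lowest synchronized array more than 0.2 log2 units above its highest superovulated array, and a synchronized mean above log2 3.5. CLGN and PNRC2, which also met these conditions with 3 probe sets, were left out by the same rule. The 21 genes were among 9155 named by a probe set with 1 symbol. Of 13292 such probe sets 24 met the conditions (0.181%), and with the groups exchanged 548 did (4.12%), in 537 genes. Over all 9134 other genes 5702 had a higher and 3108 a lower synchronized mean (median difference 0.02). For 1406 bright probe sets, those whose mean exceeded log2 4, the median was -0.59. The difference between the groups is what defines the 21 genes, and it is described here without a test.

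All embryos came from Simmental heifers that were synchronized, superovulated and artificially inseminated, 18 in all. In the synchronized group, embryos were recovered through an endoscope on day 2 at the 2-cell stage from 9 of these heifers and placed in recipients that received synchronization alone. Blastocysts of the superovulated group stayed in their superovulated mothers, and both groups were collected on day 7, with 3 arrays each. The groups thus shared superovulated donors and differed in the tract from day 2 on and in the transfer itself, and these cannot be told apart. The hormones, the number of blastocysts per array and the animals behind each array are not given in the sources used here. Values are deposited log2 expression values from Affymetrix GeneChip Bovine Genome Arrays, made with GCRMA per the submitters' processing notes, and differences are synchronized minus superovulated means. Array medians lay between 2.75 and 2.80, so a value near 3 is close to background. In bulk samples fewer cells of a type and less RNA per cell cannot be told apart.

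The number of genes depended on the arrays in use. Without superovulated arrays 1, 2 and 3 in turn the same rule gave 32, 29 and 68 genes, and without synchronized arrays 1, 2 and 3 it gave 60, 85 and 50. Fewer arrays make the rule easier to meet. At most 1 of the 21 genes was lost each time, MYB without synchronized array 1 and POLR1D without synchronized array 3. Leaving out an array cannot narrow a gap, so a gene could be lost only through the limit on the synchronized mean. The 4 genes just inside the limit on the gap were POLR1D at 0.27, MYB at 0.24, PLSCR4 at 0.23 and UQCC5 at 0.22. Just outside lay POLI at 0.20, ZPR1 at 0.19, MARK2 at 0.18 and IFT27 at 0.17. POLR1D had the lowest synchronized mean, 3.58. Among genes that met the limit on the gap, the nearest under the floor was C15H11orf16 at 3.25.

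The day-7 blastocyst is made of an outer trophectoderm, which builds the epithelium around the blastocoel, and an inner cell mass. Its cells run on the embryo's own genome after most maternal transcripts of the oocyte have been cleared. They divide quickly, make ribosomes, sort membrane and secreted proteins through the endoplasmic reticulum and Golgi, and pump ions and water into the cavity. The roles by which the 21 genes are grouped here were assigned once the genes were known.

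**Figure D1:**
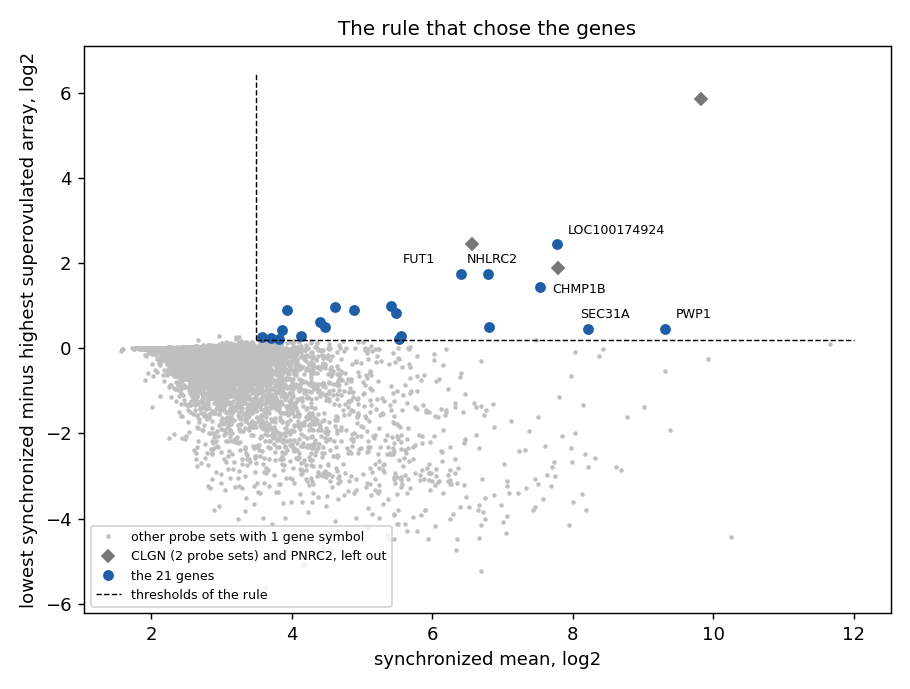
Each point is a probe set with 1 gene symbol, with its synchronized mean (log2, x axis) and the lowest synchronized minus the highest superovulated array (log2, y axis). The dashed lines are the limits of 0.2 and 3.5, inside which lie the 21 genes (blue) and the 3 probe sets of CLGN and PNRC2 (grey diamonds), while most other probe sets lie below 0.

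By difference of the means the 21 genes ran from 0.46 for TNFRSF12A to 3.55 for CHMP1B, with a median of 1.17. Differences of at least 1 log2 unit were present in 13 genes. Synchronized means ran from 3.58 to 9.31 with a median of 5.41. In 9 genes the superovulated mean lay under 3.5, so these lay at or near background in the superovulated group and the size of their difference is less certain. The superovulated mean exceeded log2 4 in 7 genes, and in these both groups were measured above background.

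None of the 21 genes passed limma at an adjusted p of 0.05 over all 24016 probe sets. When limma was run on the 1406 bright probe sets alone, 9 of the 12 genes among them passed, as did 28 of the 1406 with higher synchronized values. With arrays centred on those probe sets 20 of the 21 passed, as did 366 of all 24016 with higher synchronized values. That centring put 6322 of the 24016 higher at an unadjusted p under 0.05. The rule chose the 21 genes by this same difference, so these calls are no separate support. All 21 had an unadjusted p under 0.05, as the rule makes likely. Higher synchronized values passed in 5 of the 24016 probe sets (0.0208%), 3 of which were the probe sets of CLGN and PNRC2, and lower synchronized values in 167 (0.695%). At an unadjusted p under 0.05, 502 probe sets were higher (2.09%) and 1094 lower (4.56%) in the synchronized group. The adjusted count of 5 became 1, 0 and 1 without superovulated arrays 1, 2 and 3, and 6, 41 and 2 without synchronized arrays 1, 2 and 3. In those fits 0, 0, 0, 1, 3 and 0 of the 21 genes passed.

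**Figure D2:**
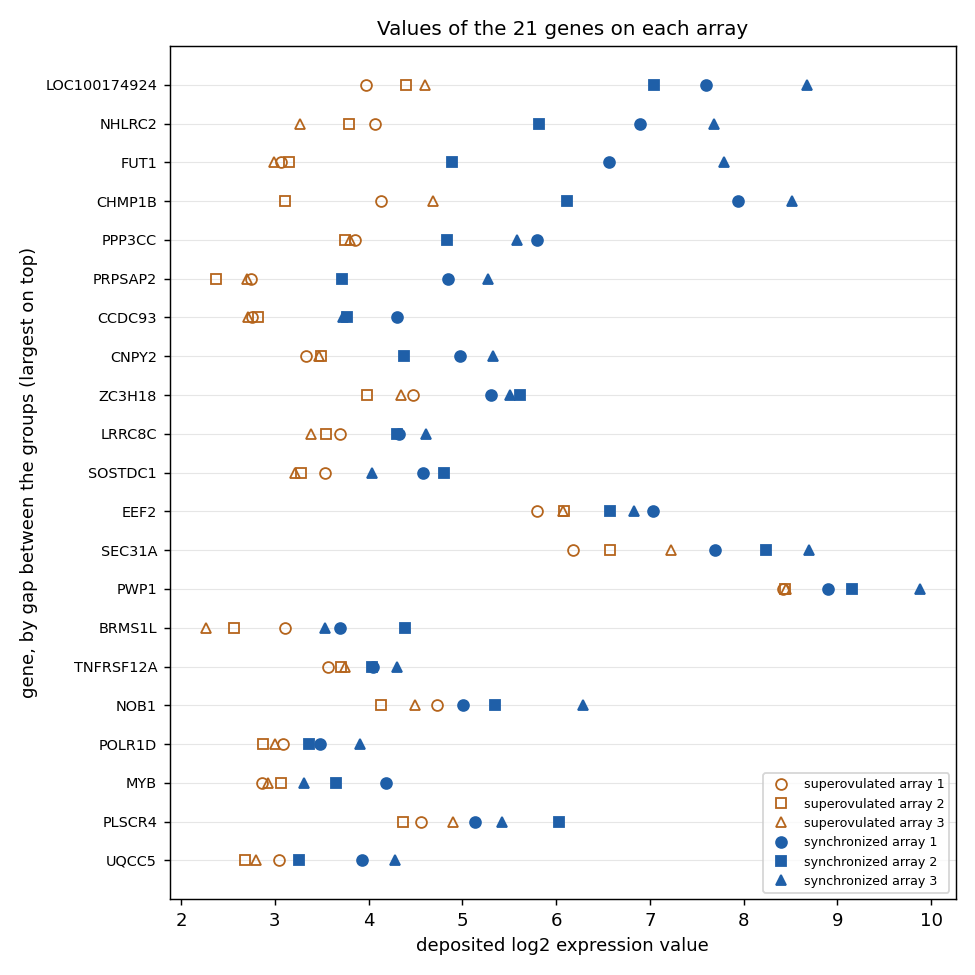
The deposited log2 value (x axis) of each of the 21 genes (y axis, by the gap between the groups) on the 3 superovulated arrays (open symbols) and the 3 synchronized arrays (filled symbols). The groups do not overlap in any gene, which the rule fixes, and synchronized array 2 (filled squares) is often the lowest of its group.

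Membrane traffic and the secretory pathway held 7 of the 21 genes, with differences from 0.87 to 3.55. CHMP1B forms filaments of the ESCRT-III complex that pinch off membranes in endosomes and at the end of cell division. In superovulated blastocysts arrays 1, 2 and 3 read 4.13, 3.11 and 4.69, and in synchronized ones 7.94, 6.12 and 8.52, the order used for all values here. Superovulated array 2 and synchronized array 2 were the lowest of their groups, and the mean went from 3.98 ± 0.80 to 7.53 ± 1.25 (SD, n = 3 in each group, as in all such pairs here). In the ARS-UCD2.0 gene table CHMP1B lies within the span of GNAL, a G protein subunit gene, which has no probe set under its own symbol.

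FUT1 adds the fucose that makes the H antigen, a carbohydrate on the surface of epithelial cells. It lay at background in superovulated blastocysts, at 3.07, 3.15 and 2.99, and read 6.56, 4.89 and 7.79 in blastocysts from synchronized recipients. Synchronized array 3 was the highest and array 2 the lowest, with an SD of 1.46 in that group and 0.08 in the superovulated group.

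SEC31A is a subunit of the outer COPII coat, which buds vesicles from the endoplasmic reticulum. It was bright in both groups, at 6.18, 6.57 and 7.23 in superovulated and 7.69, 8.24 and 8.70 in synchronized blastocysts, a difference of 1.55. The highest superovulated array and the lowest synchronized array were 0.46 apart. CNPY2, a small protein of the endoplasmic reticulum, read 3.33, 3.49 and 3.47 and then 4.97, 4.38 and 5.33. Its 3 superovulated arrays agreed to within 0.09 (SD) at a level near background.

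CCDC93, a subunit of the CCC complex that works with retriever in recycling membrane proteins from endosomes, read 2.76, 2.82 and 2.71 in the superovulated group. Its synchronized values were 4.30, 3.77 and 3.73, so the group mean of 3.93 remained low. In the gene table its span overlaps LOC523484, which has no probe set of its own.

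At the plasma membrane, the phospholipid scramblase gene PLSCR4 read 4.56, 4.37 and 4.90 against 5.13, 6.03 and 5.42. LRRC8C, a subunit of the volume-regulated anion channel, read 3.69, 3.55 and 3.38 against 4.32, 4.30 and 4.61. LRRC8C had a similar spread in both groups, 0.16 and 0.17, and PLSCR4 a gap of 0.23 near the limit of the rule.

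NHLRC2, a cytosolic protein required for early mouse development, had one of the largest differences among the protein-coding genes, at 3.09. Its superovulated values were 4.07, 3.79 and 3.27 and its synchronized values 6.89, 5.82 and 7.68. Synchronized array 2 was the lowest of its group, and the SDs were 0.41 and 0.93.

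The signalling genes were PPP3CC, SOSTDC1 and TNFRSF12A, with differences from 0.46 to 1.61. PPP3CC is a catalytic subunit of calcineurin, the calcium-activated phosphatase that sends NFAT factors to the nucleus. It read 3.85, 3.75 and 3.80 against 5.80, 4.84 and 5.58, a mean of 3.80 ± 0.05 against 5.41 ± 0.50. SOSTDC1, a secreted antagonist of BMP and WNT signals, read 3.53, 3.28 and 3.21 against 4.58, 4.80 and 4.04. TNFRSF12A, the receptor for the cytokine TWEAK, read 3.57, 3.70 and 3.75 against 4.05, 4.04 and 4.30, the smallest difference of the 21. In the gene table TNFRSF12A overlaps the tight junction gene CLDN6, whose brighter probe set went the other way, from 5.05 ± 0.53 in the superovulated group to 3.49 ± 0.60 in the synchronized group.

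RNA and transcription were represented by ZC3H18, BRMS1L and MYB, with differences from 0.76 to 1.23. ZC3H18 joins the nuclear cap-binding complex to the machinery that exports or destroys new transcripts. It read 4.47, 3.98 and 4.35 and then 5.31, 5.61 and 5.51, with a synchronized SD of 0.15 that was one of the smallest among the 21. BRMS1L, of the SIN3 histone deacetylase complex, read 3.11, 2.56 and 2.26 against 3.69, 4.39 and 3.53. MYB, a transcription factor of proliferating progenitor cells, read 2.86, 3.07 and 2.93 against 4.18, 3.65 and 3.31. For MYB and BRMS1L the superovulated arrays lay at background and the synchronized means were 3.71 and 3.87.

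Ribosome production and translation held PWP1, NOB1, POLR1D and EEF2, with differences from 0.60 to 1.10. PWP1, a WD-repeat protein linked to ribosomal RNA production, had the brightest signal of the 21 probe sets, at 8.42, 8.44 and 8.45 against 8.90, 9.16 and 9.88. EEF2 moves the ribosome along the mRNA during elongation. It read 5.80, 6.08 and 6.07 against 7.03, 6.57 and 6.83, with group SDs of 0.16 and 0.23. NOB1, the nuclease that completes the RNA of the small ribosomal subunit, read 4.73, 4.13 and 4.49 against 5.01, 5.35 and 6.29. POLR1D, a subunit shared by RNA polymerases I and III, was dim, with means of 2.99 ± 0.11 and 3.58 ± 0.29. PWP1 and EEF2 were measured well above background in both groups, with differences of 0.88 and 0.83.

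In metabolism, PRPSAP2, which binds the enzyme that makes the sugar phosphate for nucleotide synthesis, read 2.74, 2.37 and 2.70 against 4.85, 3.72 and 5.27. UQCC5, an assembly factor of respiratory complex III, read 3.04, 2.68 and 2.80 against 3.93, 3.26 and 4.28. Both were at background in the superovulated group, with differences of 2.01 and 0.98.

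LOC100174924 is listed as a long non-coding RNA in the gene table, with 2 small nucleolar RNA genes inside its span, and it was the only one of the 21 that does not code for a protein. It read 3.97, 4.40 and 4.60 against 7.60, 7.04 and 8.68, and its gap of 2.44 was the widest of the 21. Its probe set has the ending by which Affymetrix marks probes shared between different transcripts, so the signal may not come from this gene alone.

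Further probe sets were present for 9 of the 21 genes, 12 in all, and none repeated the pattern. All 12 overlapped or touched between the groups or went the other way, where 7.89% of all 24016 probe sets had every synchronized array above every superovulated one. The other probe sets had a median difference of 0.04, and 10 of them lay within 0.25 of 0. Only 2 had a group mean above 3.5, so most of them lay at or near background in both groups. Which probe set of a gene reads its transcript was not tested. The other probe sets were quiet for NHLRC2 (0.03 and 0.24), PPP3CC (0.00 and 0.04), FUT1 (0.04), PRPSAP2 (0.02), BRMS1L (0.08 and 0.03), MYB (0.00) and TNFRSF12A (0.17).

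The brighter of these further probe sets were those of LOC100174924 and PWP1. For LOC100174924 the superovulated values were 5.65, 6.39 and 6.32 and the synchronized values 4.03, 4.35 and 3.81, a difference of -2.06 against 3.45 on the probe set that met the rule. The 2 probe sets of this gene therefore gave opposite directions, both without overlap of the groups. The second probe set of PWP1 read 2.63, 2.62 and 3.89 and then 2.89, 5.20 and 2.89, above 3.5 on superovulated array 3 and synchronized array 2 alone. The remaining 12 genes, among them CHMP1B, ZC3H18, CNPY2, CCDC93, EEF2 and SEC31A, had 1 probe set each and no second reading.

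**Figure D3:**
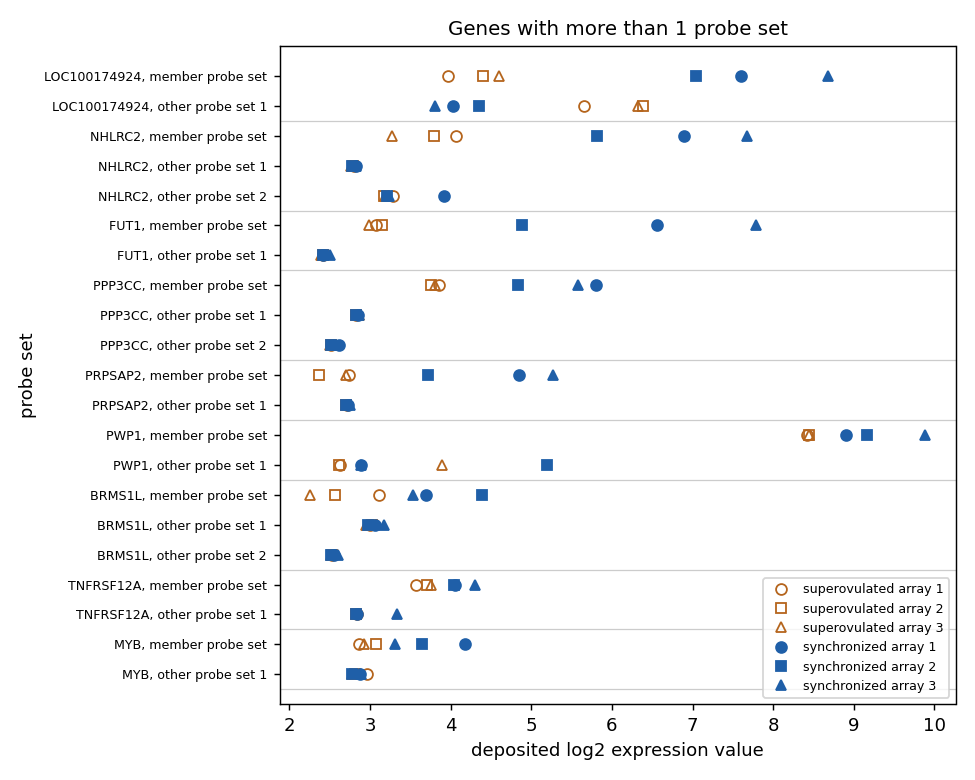
Deposited log2 values (x axis) of the 9 genes with more than 1 probe set, a row for each probe set, open symbols for superovulated and filled symbols for synchronized arrays. The other probe sets stay below 3.5 on most arrays, except that LOC100174924 goes the other way and PWP1 is high on superovulated array 3 and synchronized array 2.

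The other genes of their complexes and pathways were read beside the 21 genes. Of the 21 genes 17 were placed in 17 lists of their complex, pathway or family, 5 lists written around NHLRC2, PPP3CC, ZC3H18, CNPY2 and CCDC93 and 12 lists added once the members were known. In each of the 17 lists the gene of the 21 had the highest signed difference, as their choice makes likely, while in several lists other genes had larger differences in the lower direction. The lists held 212 other measured genes, with a median difference of 0.00 against 0.02 over all other genes. Among the 78 of them with a group mean above 3.5, 23 differences were above 0 and 55 below, with a median of -0.32. Of all 1925 other genes with a group mean above 3.5, 705 were above 0 and 1204 below, with a median of -0.26. In 27 of the 78 every synchronized array lay below every superovulated one (34.6%, and 34.4% over all such genes), and in 2, LTV1 and ATIC, every synchronized array lay above (2.56%, and 4.73% over all such genes). These shares over all such genes are the background for each list.

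Calcineurin partners differed little or in both directions. Of 14 measured genes of the calcineurin and NFAT list none passed limma in either direction, and the median was 0.07. At an unadjusted p under 0.05, 1 of the 13 genes beside PPP3CC was higher and 1 lower, where 2.09% and 4.56% of all probe sets were. NFATC3, a target of calcineurin, read 3.42, 3.21 and 4.02 against 2.80, 2.70 and 2.45. The feedback inhibitors RCAN1 and RCAN3 differed by 0.48 and 1.27, the latter with 5.86 on synchronized array 2 and at most 3.83 elsewhere. The calcium-binding CALM3 and CHP1, the 2 brightest partners apart from PPP3CC itself, differed by -0.30 and 0.33 with overlapping arrays.

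In the list around ZC3H18, of cap-binding and nuclear RNA decay, none of 19 genes passed and the median was -0.04. SRRT, which binds the cap complex together with ZC3H18, read 5.93, 5.87 and 5.31 against 3.39, 4.10 and 4.09. The export adaptor ALYREF and the exosome subunit EXOSC9 also read lower in the synchronized group, by -2.11 and -0.77, without overlap. ZC3H18 was the only one of the 4 bright genes of this list with a higher synchronized mean. Of the other 18 genes 1 was higher and 4 lower at an unadjusted p under 0.05 (2.09% and 4.56% over all probe sets).

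None of the 22 Commander and WASH genes passed, with a median of 0.01. COMMD1, a direct partner of CCDC93 in the CCC complex, read 4.79, 4.96 and 4.62 against 4.54, 4.05 and 4.31, and CAPZA1, which caps actin filaments, differed by -0.24 with overlap. Of the 18 genes around CNPY2 none passed and the median was 0.01. The chaperones CANX and PDIA3 of the endoplasmic reticulum differed by -1.18 and -0.76 without overlap, and HSPA5 by -0.26 with overlap. Among 20 thioredoxin-like genes around NHLRC2 none passed, the median was 0.02, and thioredoxin itself, TXN, read 6.27, 7.06 and 6.70 against 4.57, 5.63 and 6.02. Beside CCDC93, CNPY2 and NHLRC2, no gene of these 3 lists was higher at an unadjusted limma p under 0.05, and 2 of 21, 3 of 17 and 2 of 19 were lower (2.09% and 4.56% over all probe sets).

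In the added lists, EEF2 differed by 0.83 and the elongation factor 1 subunit genes EEF1B2, EEF1D and EEF1G differed by -2.44, -1.15 and -1.27 without overlap. EEF1A1 read 8.13, 8.61 and 8.69 against 4.54, 8.62 and 6.90, with overlap. SEC31A differed by 1.55, and its COPII partners SAR1A and PREB, which start the coat, by -0.64 each. CHMP1B differed by 3.55, and the other bright ESCRT-III gene, CHMP5, by -0.17 with 5.89 on synchronized array 2.

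UQCC5 differed by 0.98. Of the structural subunits of complex III, UQCRB, UQCR10 and UQCR11 differed by -2.04, -2.50 and -2.51, and UQCR11 passed limma. The dim UQCRC1 and UQCRC2 differed by 0.21 each, and the median of this list was -0.08. NOB1 had partners in both directions, since RIOK2, a kinase of the same maturing particle, differed by -0.64 and passed, and LTV1 by 0.48 without overlap. In the list of RNA polymerases I and III, POLR2F, another subunit shared between polymerases, had means of 6.78 ± 0.48 and 3.72 ± 0.70, while POLR1D differed by 0.60. Over all genes, each read from its brightest probe set, 2 passed with higher and 119 with lower synchronized values, of 9155.

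**Figure D4:**
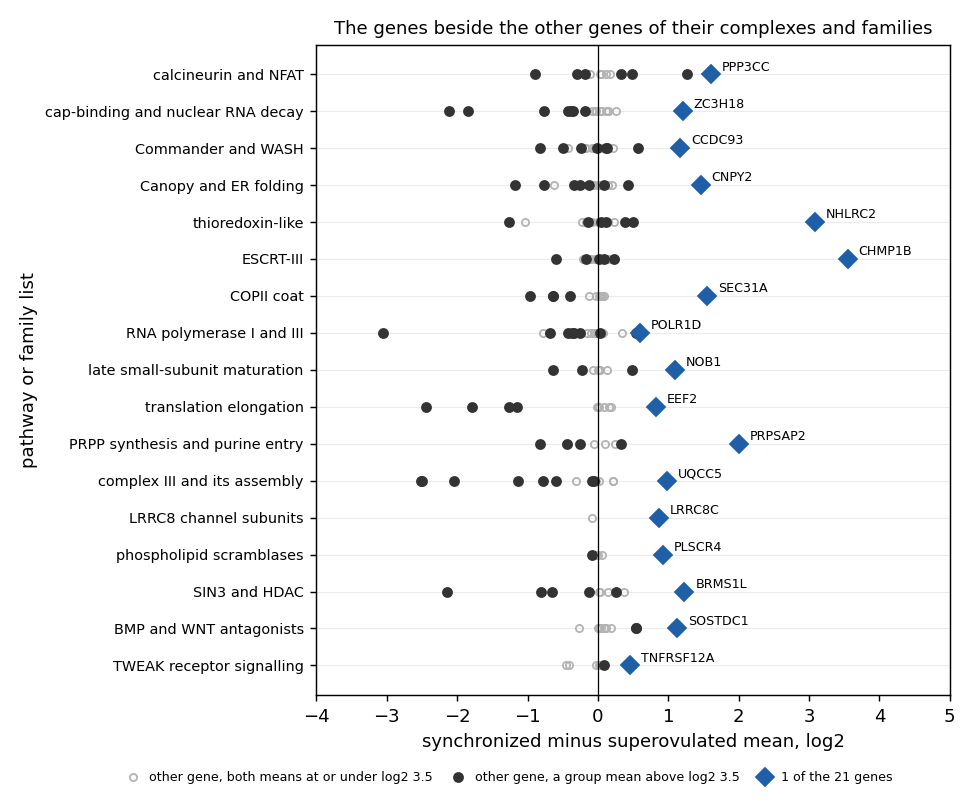
Synchronized minus superovulated means (log2, x axis) for the measured genes of each list (y axis), with the genes of the 21 as blue diamonds, other genes with a group mean above 3.5 as filled circles and dimmer genes as open circles. The diamonds lie right of 0, which the rule fixes, and the filled circles lie mostly left of 0 or around it.

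The rule did not use the order of the arrays within a group. Synchronized array 3 was the highest for 13 of the 21 genes (61.9%) and synchronized array 2 the lowest for 12 (57.1%). Among the 1346 other probe sets with a mean above log2 4 and no ties, array 2 was instead the highest in most cases (61.3%) and array 3 in 25.1%. The order array 3, then 1, then 2 held for 10 of the 21 genes (47.6%), LOC100174924, NHLRC2, FUT1, CHMP1B, PRPSAP2, CNPY2, LRRC8C, TNFRSF12A, POLR1D and UQCC5, and the other 11 had another order. Among probe sets without ties it held for 13.7% of the other bright ones, and for 17.3% of those that met the rule with the groups exchanged. SD within the synchronized group exceeded that within the superovulated group in 19 of the 21 genes, and in 77.4% of all bright probe sets.

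Those 10 genes were grouped by their order, which the rest of the 21 lacked. The same order held for the BioB and BioC hybridization controls, the only hybridization controls read here. These are bacterial transcripts added in equal amount to each labelled sample, so they do not come from the embryo. The mean of the 10 BioB and BioC probe sets was 10.82, 10.88 and 10.86 in the superovulated group and ranged from 11.20 to 12.20 in the synchronized group. A two-sided exact permutation test gave p = 0.1, and 3 against 3 arrays can give no smaller one. All 10 of them were higher on every synchronized array and had the order 3, 1, 2. Over the 21 genes the mean value was 4.05, 3.91 and 4.05 and then 5.53, 5.21 and 5.87, a direction that the rule fixes. The part of the controls' shift in the difference of the 21 genes was not tested.

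When each array was shifted by the mean of these controls, a setting chosen after seeing the data, 7 of the 21 genes still met the rule. They were LOC100174924, NHLRC2, FUT1, CHMP1B, PPP3CC, PRPSAP2 and CNPY2. With the groups exchanged, 1948 genes met the rule under this shift, against 537 without it. The shift moves all probe sets of an array by the same amount. Under that shift NHLRC2 differed by 2.27, PPP3CC by 0.79, CNPY2 by 0.65, ZC3H18 by 0.40 and CCDC93 by 0.36. The other control groups behaved differently. The poly-A controls, added to the RNA at the start, averaged 6.83 ± 0.31 and 7.24 ± 1.11 with the high value on synchronized array 3 (8.51), and overlapped between the groups. The control probe set for the 3 prime end of bovine GAPDH, from the embryo's own RNA, read 8.67, 8.80 and 9.14 against 7.20, 8.35 and 8.22. That for the 3 prime end of eIF-4E fell further, from 8.16, 8.52 and 8.31 to 3.71, 6.23 and 5.92.

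**Figure D5:**
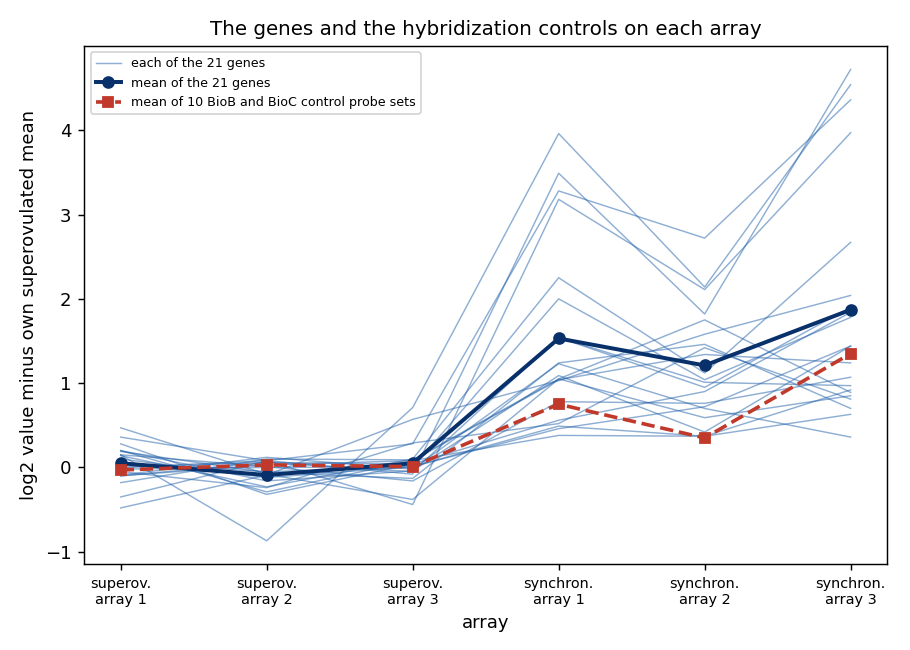
Log2 value minus the superovulated mean of the same gene or control (y axis) on each of the 6 arrays (x axis), for each of the 21 genes (thin lines), their mean (thick line) and the mean of the 10 BioB and BioC control probe sets (dashed line). Both means are higher on all synchronized arrays, which the rule fixes for the 21 genes. Both run in the order array 3, array 1, array 2 on those arrays.

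Marker lists of other tissues held no gene that passed limma with higher synchronized values. Of 19 measured cumulus and granulosa genes none passed with higher synchronized values and 1, COL1A2, passed with lower ones. The list median was 0.12, and its 2 bright genes, TNFAIP6 and INHA, differed by 1.75 and 0.08 with overlapping arrays. TNFAIP6 read 3.05, 2.99 and 7.38 against 4.25, 8.47 and 5.96. The list mean was 3.16 to 3.55 on the superovulated and 3.28 to 3.78 on the synchronized arrays. The 11 oviduct and uterus genes averaged 2.99 to 3.26 and 2.93 to 3.14. Of the 2 bright ones, C3 was lower in the synchronized group by limma, and SERPINA14 differed by 1.04 with overlapping arrays. SERPINA14 read 3.34, 3.71 and 6.79 against 4.45, 7.87 and 4.65. The mean of the 14 blood and immune genes was 2.65 to 2.68 on the superovulated and 2.67 to 2.87 on the synchronized arrays. Among them the haemoglobin gene HBM, named after its values were seen, read 2.62, 2.70 and 2.69 against 4.60, 2.70 and 3.49, high on synchronized arrays 1 and 3. Of 10 maternal oocyte genes none passed limma, and 2 were higher and 0 lower at an unadjusted p under 0.05 (2.09% and 4.56% over all probe sets). The median difference was 0.28, and the list mean ranged from 2.83 to 4.18 within the synchronized group alone. Its 2 bright genes, KPNA7 and ZP2, differed by -0.18 and 0.43 with overlapping arrays. KPNA7 read 5.94, 5.98 and 7.78 against 4.04, 9.02 and 6.11. At an unadjusted p no cumulus, oviduct or blood gene was higher. The part of these lists in the values of the 21 genes was not tested. The blastocyst lineage list of 15 genes had a median of 0.01. Its keratin gene KRT18 passed with lower synchronized values, at 7.96, 8.11 and 7.74 against 3.55, 3.68 and 4.90. Of all 9155 genes 119 passed in this direction. The other bright genes of the list, GATA6 and ATP1B1, differed by -2.12 without overlap and by 0.32 with overlap.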

How the data were processed

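The authors deposited expression values on a log2 scale, made with GCRMA per the submitters' processing notes, which give no version and do not say if normalization covered all 6 arrays at once. The table held 24128 probe sets, of which 112 controls were set aside. Symbols came from the platform annotation held by GEO: 13292 probe sets had 1 symbol, 86 several and 10638 none. The members and gene lists were chosen with earlier results of these data known. As a background, limma 3.58.1 (R 4.3.3) tested the difference between the groups, two-sided and Benjamini-Hochberg adjusted over 24016 probe sets. A gene in a list was represented by its brightest probe set on average. Genes were named where they were among the 21, had a limma call or were the brightest of a list; further genes of the lists were named after their values were seen. Bright means a mean above log2 4. Both the rule and the fit were run on simulated data as a check of the code. For the rule, the planted differences were large against the simulated spread. Their recovery was thus fixed in advance and says nothing about these arrays. Alternatives covered the limits of the rule, scaling, each array left out, the replicate number as a block, a variance trend and a filter on dim probe sets. The labels do not tie arrays to animals, so p-values measure the spread between these arrays, and the 3 arrays per group limit the precision. Deviations from the group means over 1406 bright probe sets correlated at r = 0.601 for the arrays numbered 1, and at -0.543 and -0.438 for those numbered 2 and 3, so the numbers were not taken as pairs. The highest correlation was between superovulated array 3 and synchronized array 2 (0.736). Promoter and protein sequences were not analysed here.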

Additional observations from a re-analysis of the deposited data

Results flagged for a closer look

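Outside the probe sets with a gene symbol, 23 of 10724 probe sets (0.214%) met the same value conditions, with differences from 0.44 to 5.05 and a median of 1.87. They carry no name here. In the largest case superovulated values were 3.28, 4.32 and 4.69 and synchronized values 9.20, 8.42 and 9.82. Of the 22 without ties 11 had the order array 3, 1, 2 within the synchronized group.

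The BioB and BioC hybridization controls averaged 11.66 ± 0.50 on the synchronized and 10.85 ± 0.03 on the superovulated arrays. They were set aside before the rule and limma, and entered only the shift chosen after seeing the data. The part of this shift in the values of the 21 genes was not tested.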

How the results depend on the processing

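The count of 21 genes was 118 with a gap above 0 and 11 with a gap above 0.5, 11 with a synchronized mean above log2 5, 52 after quantile normalization (18 of the 21 kept), 459 with arrays centred on bright probe sets (19 kept), 7 when shifted by the hybridization controls and 122 without superovulated array 3 and synchronized array 2 together, the pair whose deviations correlated most, the last 2 settings chosen after seeing the data. Leaving out 1 array gave 29 to 85. Within 1.5 times stayed a synchronized mean above log2 3 (24) and the brightest probe set of each gene (21). NHLRC2, PPP3CC, ZC3H18, CNPY2 and CCDC93 kept their direction under the scalings and left-out arrays run, which the rule fixes for the latter. The mean difference of the other probe sets, -0.06, became 0.56 when centred on bright probe sets, which adds the same amount to every probe set of an array. Limma's 5 probe sets with higher synchronized values became 1 after quantile normalization, 1 with an intensity trend, 28 among bright probe sets alone (9 of the 21 genes called), 366 when centred on them (20 of the 21 genes called), and 0 to 41 with 1 array left out. With the replicate number as a block, limma called 0, with 289 at an unadjusted p under 0.05. The cause of these changes was not tested. With 3 arrays per group and 9 of the 21 genes near background in the superovulated group, the sizes of those differences are the least certain.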
